A study of Homo sapiens with 14 samples.

Results

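The genes examined encode the machinery that copies DNA. They were a fixed list of 41 genes, found by symbol among the 58440 genes of the files, and all 41 passed the low-count filter of every test. Expression was measured by RNA-seq in 14 libraries from HEK-293T cells, Jurkat cells and mixtures of both. HEK-293T is an attached, epithelial-like line of embryonic kidney origin that carries the SV40 large T antigen, and Jurkat is a T cell leukemia line grown in suspension. Neither line received a treatment. Cells were mixed before lysis at 80, 60, 50, 40 or 20% HEK cells, and pure HEK and pure Jurkat cells completed the 7 conditions. Each condition had 2 technical replicates of 1000000 cells. The p-values below rest on the spread between such libraries, which may be technical. In the tests over the mixtures, differences between mixing conditions that the fit does not describe enter that spread as well.

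Replication starts with licensing of origins. The origin recognition complex (ORC1 to ORC6) marks the origins, and CDC6 and CDT1 load the MCM2-7 helicase ring onto DNA there, while geminin (GMNN) inhibits CDT1 outside G1 phase. MCM10, CDC45 and the GINS complex turn the loaded ring into a working helicase. DNA polymerase alpha with primase starts the new strands, polymerases delta and epsilon extend them, replication factor C (RFC) places the sliding clamp PCNA, replication protein A (RPA) covers single strands, and FEN1 and LIG1 process and join the Okazaki fragments. Cycling cells, which include both of these lines, express these genes, and many of them peak toward S phase.

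The libraries held between 4468822 and 28303668 gene counts (median 13505082.5), with the pure Jurkat libraries the shallowest, at 4468822 and 6204316. Spike-ins made up between 0.674 and 7.65% of all counts. A count of 3 corresponded to between 0.106 and 0.671 counts per 1000000 gene counts (CPM), below the level of each of the 41 genes in every library. The labels of the lines held: all 10 T cell markers were higher in both Jurkat libraries (summed 3011 to 3422 CPM against 14.6 to 18.5 CPM in HEK), and all 8 HEK markers were higher in both HEK libraries (261 to 289 against 26.5 to 40.2 CPM). In every condition the replicates differed by more than sampling noise (chi-square per degree of freedom 18.4 to 129 over genes), and the largest value belonged to the 50% HEK pair. The names of 8 deposited files carried 1 prefix and those of the other 6 another. Both pure HEK files had one prefix and both pure Jurkat files the other, so that prefix and line cannot be told apart there.

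Between the pure lines, a few replication genes stood higher in HEK, fewer stood higher in Jurkat, and most were not called. Summed over the 41 genes, HEK had 4226 and 3757 CPM and Jurkat 3136 and 3536 CPM, while the mixtures ran from 3377 to 4053 CPM. GMNN alone made up 676 and 132 CPM of the HEK sums and 116 and 92.5 CPM of the Jurkat sums. In length-scaled units (TPM, defined below) the sums of the lines overlapped, with 3141 and 2490 in HEK and 2428 and 3157 in Jurkat. The CPM sums used library totals alone, whose effect is given at the end of this paragraph. In the test of the lines 7 of the 41 genes were called at an adjusted p of 0.05 (edgeR quasi-likelihood test, Benjamini-Hochberg over all 15794 genes tested), where 43.2% of all genes tested were called. Of these, 5 were higher in HEK (background 24.2%) and 2 were higher in Jurkat (background 19.0%). RPA2, ORC4, PCNA, RFC3 and CDT1 were higher in HEK, and RFC1 and MCM6 were higher in Jurkat. The median log2 fold change of HEK over Jurkat was 0.30 over the 41 genes and 0.07 over all genes, and 27 of the 41 were above 0. An unadjusted p under 0.05 was reached by 12 of them (background 52.7%). In bulk RNA, fewer cells in S phase and less RNA per such cell cannot be told apart. The number of calls changed when single libraries were left out, which leaves 1 line with 1 library that is assumed to vary like the other line: leaving out pure HEK replicate 1 left 0 called (edgeR, background 19.8%, 4 at an unadjusted p under 0.05), leaving out pure HEK replicate 2 left 1 (background 19.4%), leaving out pure Jurkat replicate 1 gave 8 (background 36.1%) and leaving out pure Jurkat replicate 2 gave 2 (background 33.2%). Without pure HEK replicate 1 the log2 fold changes were -1.09 for RFC1, 0.99 for RPA2, 1.00 for ORC4, 0.70 for PCNA, 0.69 for RFC3, 0.67 for CDT1 and -0.90 for MCM6, with edgeR adjusted p-values from 0.0854 to 0.211. The gene called without pure HEK replicate 2 was GMNN (log2 fold change 2.49), which is not among the 7 above. GMNN had 676 CPM in pure HEK replicate 1 and 132 CPM in replicate 2. The genes called without pure Jurkat replicate 1 were not all among the 7 either. The fit of all 4 pure libraries by DESeq2 called 8, of which 6 were among the 7 above (5819 of all 18785 genes tested were called). Scaling by library totals alone in place of TMM factors raised the median of all genes by 0.23 on the log2 scale, and fold changes below are on the TMM scale.

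**Figure D1:**
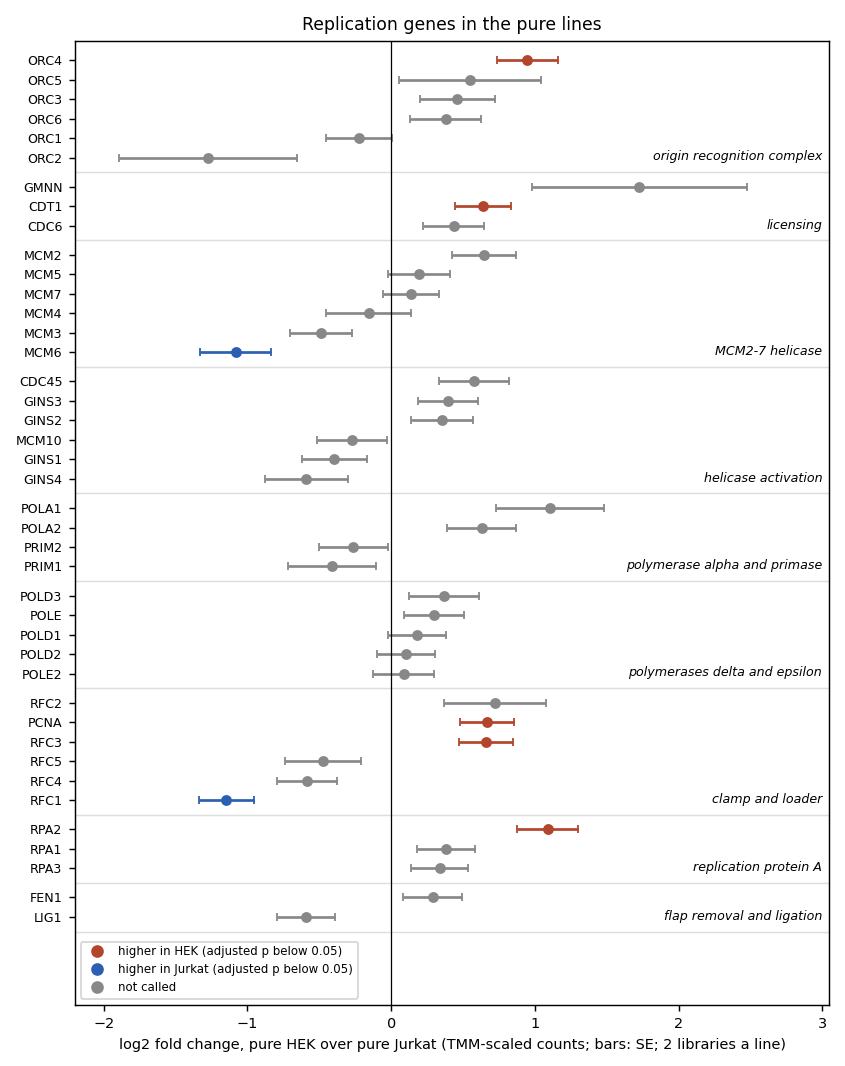
Log2 fold change of pure HEK over pure Jurkat for the 41 genes, grouped by role (points, edgeR estimate on TMM-scaled counts; bars, SE; 2 libraries a line). The 5 genes called higher in HEK are in red and the 2 called higher in Jurkat, MCM6 at -1.08 and RFC1 at -1.15, are in blue; every role with more than 3 genes, except the polymerases delta and epsilon, has points on both sides of 0.

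The promoters of called genes are shown because replication genes are a textbook set of E2F-regulated genes. The RefSeq promoter table for GRCh38.p14 held 35 of the 41 genes. In the 200 bases before the start, the E2F motif TTTNNCGC on either strand occurred in 16 of these 35 genes (45.7%) and in 5.98% of all 27305 genes of the table. The CCAAT box (CCAAT, either strand) occurred in 20 of the 35 (57.1%) and in 32.7% of all genes. MCM6, at chr2:135839626-135876443 on the minus strand, has both motifs, and CDT1, at chr16:88803789-88809258 on the plus strand, has the E2F motif. Their windows are chr2:135876444-135876643 and chr16:88803589-88803788, written from 5′ to 3′ on the strand of the gene, with matches in capitals.
MCM6: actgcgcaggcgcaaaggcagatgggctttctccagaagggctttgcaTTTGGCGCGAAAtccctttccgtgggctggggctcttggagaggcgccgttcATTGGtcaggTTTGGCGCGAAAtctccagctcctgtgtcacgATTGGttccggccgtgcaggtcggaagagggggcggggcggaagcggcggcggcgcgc
CDT1: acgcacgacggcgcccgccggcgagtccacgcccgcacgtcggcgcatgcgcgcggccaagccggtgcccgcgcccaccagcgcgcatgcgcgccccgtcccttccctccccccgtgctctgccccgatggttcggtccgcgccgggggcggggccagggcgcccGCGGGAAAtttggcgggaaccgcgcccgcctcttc
In MCM6 the E2F motif reads on both strands in 2 overlapping pairs, and the CCAAT box lies on the reverse strand at both of its places. MCM6 was the rule-based choice as the called gene of the helicase ring. CDT1, called in the other direction, was added after its values were seen, when the choice was widened to all called genes. Only genes with 1 start in the promoter table and a window outside their annotated gene are shown. RFC1 and RFC3 also match the E2F motif, but their windows overlap the annotated gene. A match describes the letters only and carries no evidence of binding.

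Among the origin recognition genes, ORC4 was the one called. It lies at chr2:147930396-148021604, and its locus overlaps annotated genes on the opposite strand. ORC4 had 38.1 and 39.1 CPM in HEK and 18.5 and 15.8 CPM in Jurkat, a log2 difference of 0.95 ± 0.21 (SE, n = 2 libraries a line, edgeR adjusted p = 0.0201). In the mixtures it had 26.8 and 35.1 CPM with 80% HEK, 37.9 and 33.0 with 60%, 23.7 and 37.0 with 50%, 27.2 and 35.0 with 40%, and 32.2 and 31.4 with 20%. Both HEK libraries thus stood above both Jurkat libraries, and every mixed library lay between the lines. The other 5 genes of the complex were not called. ORC2 gave 74.3 and 62.3 CPM in HEK but 59.4 and 221 CPM in Jurkat, so that the Jurkat libraries lay on both sides of HEK (log2 -1.27 ± 0.62, edgeR adjusted p = 0.153). It also varied in the mixtures, with 106 and 54.4 CPM with 80% HEK, 51.1 and 86.6 with 60%, 86.2 and 45.8 with 50%, 87.7 and 35.4 with 40%, and 70.1 and 111 with 20%.

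All 3 licensing genes had estimates above 0, and CDT1, the loader of the helicase, was called. CDT1 had 85.1 and 84.5 CPM in HEK against 48.1 and 45.0 CPM in Jurkat (log2 0.64 ± 0.19, edgeR adjusted p = 0.047). In the mixtures CDT1 had 68.9 and 85.8 CPM with 80% HEK, 92.2 and 84.3 with 60%, 69.5 and 110.4 with 50%, 57.9 and 99.2 with 40%, and 64.0 and 95.3 with 20%. It was called under 4 of the 11 alternative settings, the fewest of the 7 called genes. GMNN, its inhibitor, had the largest fold change of the 41 genes and the widest gap between replicates. It reached 676 and 132 CPM in HEK and 116 and 92.5 CPM in Jurkat, so that replicate 1 of HEK stood 5.10-fold above replicate 2 and the line difference was not called (log2 1.73 ± 0.75, edgeR adjusted p = 0.118). In the mixtures GMNN had 187 and 232 CPM with 80% HEK, 196 and 163 with 60%, 399 and 459 with 50%, 119 and 350.4 with 40%, and 382 and 218 with 20%. These levels followed no order of the HEK percentage. The estimate of CDC6, the ATPase that joins CDT1 in loading, was not called (log2 0.43 ± 0.21, edgeR adjusted p = 0.152).

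Of the 6 subunits of the MCM2-7 ring, which work in equal numbers in the protein complex, MCM6 was the one called between the lines, and differences between subunits were not tested. MCM6 had 99.0 and 123 CPM in HEK and 176 and 225 CPM in Jurkat, 2.12-fold higher in Jurkat on the fitted scale (log2 -1.08 ± 0.25, edgeR adjusted p = 0.021). In the mixtures it had 120.5 and 130.5 CPM with 80% HEK, 184 and 160.2 with 60%, 106 and 107 with 50%, 124 and 145 with 40%, and 196 and 103 with 20%. The lines did not overlap, while the replicates at 20% HEK were 1.89-fold apart. MCM2 pointed the other way without being called, with 95.2 and 81.6 CPM in HEK and 53.7 and 43.0 CPM in Jurkat (log2 0.65 ± 0.22, edgeR adjusted p = 0.0672). Its mixtures had 64.4 and 67.8 CPM with 80% HEK, 100.1 and 99.1 with 60%, 63.3 and 129 with 50%, 51.7 and 96.5 with 40%, and 74.0 and 78.1 with 20%.

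MCM3, MCM4, MCM5 and MCM7 had log2 estimates from -0.49 to 0.19, none of them called. MCM3 had 269 and 314 CPM in HEK and 324 and 374 CPM in Jurkat (log2 -0.49 ± 0.21), and MCM4 had 348 and 364 against 257 and 420.1 CPM (log2 -0.16 ± 0.29). MCM5 had 57.2 and 48.8 against 36.7 and 42.4 CPM (log2 0.19 ± 0.22), and MCM7 had 208 and 209 against 156 and 168 CPM (log2 0.14 ± 0.19). The edgeR adjusted p-values of these 4 genes lay between 0.124 and 0.698. For MCM7, whose locus also hosts the microRNAs MIR25, MIR93 and MIR106B and overlaps AP4M1 on the other strand, reads of the overlapping genes may be counted with it, since the strand setting of the counting was not given in the sources used here.

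In the mixtures MCM3 had 239.6 and 274 CPM with 80% HEK, 182 and 161 with 60%, 510.3 and 199 with 50%, 231 and 171 with 40%, and 291 and 258 with 20%. MCM4 was the steadiest of the ring, with 398 and 384 CPM with 80% HEK, 374 and 337 with 60%, 337 and 297 with 50%, 439 and 361 with 40%, and 310.1 and 303 with 20%. MCM5 gave 42.9 and 51.9 CPM with 80% HEK, 65.8 and 61.0 with 60%, 45.1 and 81.6 with 50%, 45.3 and 66.6 with 40%, and 53.9 and 56.5 with 20%. The gap of MCM5 at 50% HEK ran opposite to that of MCM3, and MCM7 shared the direction of MCM5. MCM7 gave 181 and 215 CPM with 80% HEK, 289 and 282 with 60%, 177 and 316 with 50%, 173 and 256 with 40%, and 214 and 267 with 20%.

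None of MCM10, CDC45 and GINS1 to GINS4 was called between the lines, with log2 estimates from -0.59 to 0.58. GINS4, a subunit of the GINS complex, was at the lower end, and its lines overlapped, with 35.0 and 32.5 CPM in HEK and 33.6 and 53.1 CPM in Jurkat. It had 57.5 and 45.0 CPM with 80% HEK, 35.8 and 24.0 with 60%, 60.7 and 49.9 with 50%, 57.9 and 28.4 with 40%, and 51.1 and 38.0 with 20%. CDC45, the helicase cofactor at the upper end, had 54.4 and 55.8 CPM in HEK against 37.1 and 26.3 CPM in Jurkat (log2 0.58 ± 0.24, edgeR adjusted p = 0.114).

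Of the genes for polymerase alpha and primase, the catalytic subunit POLA1 came closest to a call. POLA1 had 125 and 95.7 CPM in HEK and 58.6 and 29.3 CPM in Jurkat (log2 1.10 ± 0.37, edgeR adjusted p = 0.0648), and it was called under 5 of the 11 alternatives. Its mixtures had 55.6 and 69.7 CPM with 80% HEK, 54.8 and 43.9 with 60%, 73.5 and 38.4 with 50%, 66.8 and 80.8 with 40%, and 99.3 and 125 with 20%. The 2 libraries with the fewest HEK cells among the mixtures were thus the highest, although pure HEK stood above pure Jurkat. The primase genes PRIM1 and PRIM2 had estimates below 0 and POLA2 one above 0, none of them called. The 5 genes of polymerases delta and epsilon spanned the narrowest range of any role with more than 3 genes, from 0.09 (POLE2) to 0.37 (POLD3), with no call.

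Of the 6 genes of the clamp and its loader, 2 were called higher in HEK (background 24.2%) and 1 higher in Jurkat (background 19.0%). PCNA, at chr20:5114953-5126626, had 180.0 and 180.1 CPM in HEK and 97.6 and 96.4 CPM in Jurkat (log2 0.67 ± 0.19, edgeR adjusted p = 0.0404). In the mixtures PCNA had 156 and 190.0 CPM with 80% HEK, 231 and 210.2 with 60%, 131 and 253 with 50%, 116 and 214 with 40%, and 133 and 182 with 20%. The replicates of each pure line differed by under 2 CPM in the files, whereas those of the 50% mixture differed 1.92-fold. PCNA, RFC3 and RPA2 have annotated pseudogenes elsewhere in the genome, which may share reads with PCNA. Fractional expected counts, which mark reads divided between genes, occurred for PCNA in 10 of the 14 libraries and for RFC3 and RPA2 in 0. Of the called genes, ORC4 had fractional counts in all 14.

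RFC1, the large subunit of the loader, at chr4:39287456-39366375, moved opposite to PCNA. It had 211 and 219.7 CPM in HEK and 403 and 413 CPM in Jurkat, 2.21-fold higher in Jurkat on the fitted scale (log2 -1.15 ± 0.19, edgeR adjusted p = 0.00866, the lowest of the 41 genes). Its mixtures had 309 and 265 CPM with 80% HEK, 194 and 223 with 60%, 301 and 176 with 50%, 297 and 226 with 40%, and 246 and 301 with 20%. RFC1 and RPA2 were each called under 9 of the 11 alternatives, more than any other of the 41 genes. RFC3, a small loader subunit, had 242 and 241 CPM in HEK and 129.6 and 132 CPM in Jurkat (log2 0.66 ± 0.19, edgeR adjusted p = 0.0417). In the mixtures RFC3 had 218 and 217 CPM with 80% HEK, 252 and 197 with 60%, 165 and 122 with 50%, 155 and 214 with 40%, and 103 and 177 with 20%. Among the other small subunits, RFC2 had 32.8 and 55.7 CPM in HEK against 27.5 and 18.7 CPM in Jurkat (log2 0.72 ± 0.36, edgeR adjusted p = 0.159), and RFC4 and RFC5 had estimates below 0 without a call. The mixtures of RFC2 had 40.1 and 33.3 CPM with 80% HEK, 43.8 and 46.8 with 60%, 36.2 and 42.6 with 50%, 42.1 and 59.0 with 40%, and 41.2 and 41.3 with 20%.

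RPA2, the middle subunit of RPA, at chr1:27891524-27914746, was the gene with the largest called difference toward HEK. It had 86.5 and 72.0 CPM in HEK and 30.9 and 32.7 CPM in Jurkat, 2.13-fold higher in HEK (log2 1.09 ± 0.21, edgeR adjusted p = 0.0132). In the mixtures RPA2 had 62.0 and 115 CPM with 80% HEK, 92.2 and 92.4 with 60%, 56.6 and 99.7 with 50%, 61.3 and 85.8 with 40%, and 60.2 and 58.3 with 20%. All 10 mixed libraries lay above both Jurkat libraries. Its partners RPA1 and RPA3 had log2 estimates of 0.38 and 0.34 and were not called. For the joining of Okazaki fragments, LIG1 had 48.2 and 46.0 CPM in HEK and 65.3 and 55.9 CPM in Jurkat (log2 -0.59 ± 0.20, edgeR adjusted p = 0.0664), and FEN1 had an estimate of 0.29 without a call. LIG1 had 51.6 and 34.5 CPM with 80% HEK, 46.1 and 37.4 with 60%, 62.2 and 46.6 with 50%, 39.7 and 30.7 with 40%, and 79.3 and 55.9 with 20%.

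**Figure D2:**
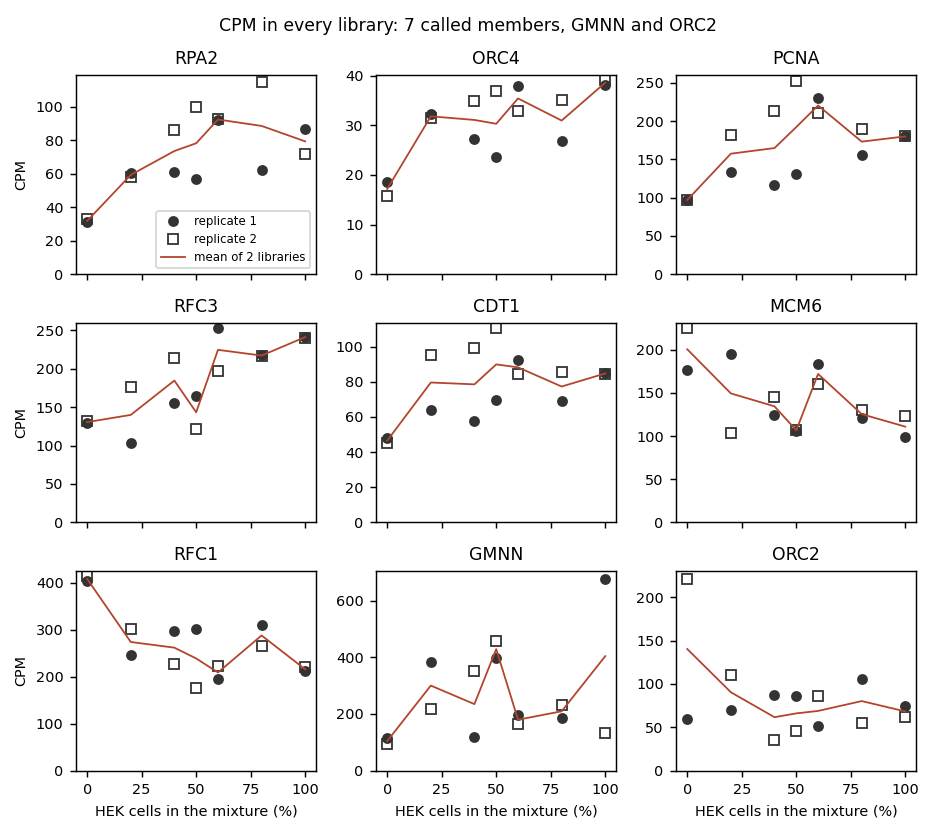
CPM (vertical axes, from 0) of the 7 called genes, GMNN and ORC2 in each of the 14 libraries, against the percentage of HEK cells; filled and open points are the 2 replicates and the line joins their means. The replicates of PCNA meet in both pure lines but lie at 131 and 253 CPM at 50% HEK; GMNN splits in pure HEK (676 and 132 CPM) and ORC2 in pure Jurkat (59.4 and 221 CPM).

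Levels of different genes were compared per length, in transcripts per 1000000 (TPM, mean of 2 libraries). In HEK the order began with GMNN at 467 TPM, a mean of 815 and 119 TPM that leads only through replicate 1, followed by MCM4 at 229, RFC1 at 197, RPA3 at 154 and PCNA at 136 TPM. In Jurkat it began with RFC1 at 451 TPM, MCM4 at 266, ORC2 at 245 and MCM3 at 167 TPM, where ORC2 had 87.8 and 402 TPM in the 2 libraries. The lowest were ORC1 in HEK, at 4.30 TPM, and ORC4 in Jurkat, at 4.34 TPM. The median gene stood at 44.4 TPM in HEK and 39.3 TPM in Jurkat. Most neighbours in these orders did not differ beyond their spread: the replicates of 31 of 40 neighbouring pairs overlapped in HEK and of 35 of 40 in Jurkat. The libraries were primed with oligo-dT, and whether division by length suits such reads was not tested.

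Each library received a fixed volume of spike-ins for its 1000000 cells, so counts per spike-in count were taken to follow the amount of messenger RNA per cell. By this measure all 41 genes were higher in HEK (edgeR, highest adjusted p = 1.613e-05), where 92.5% of all genes tested were higher. The p-values of this comparison rest on a spread pooled over genes, not on that of each gene between its 2 libraries. In sum the 41 genes had 623 and 366 counts per 1000 spike-in counts in HEK and 37.9 and 43.6 in Jurkat, a ratio of means of 12.1, beside 10.03 for all genes together. The log2 differences of single genes ran from 2.30 (ORC2) to 5.47 (GMNN), with a median of 3.86 for the 41 genes and 3.61 for all genes. The genes called higher in Jurkat by CPM were higher in HEK by this measure too: MCM6 had a mean of 13.3 counts per 1000 spike-in counts in HEK and 2.45 in Jurkat. PCNA had 22.0 and 1.18, an 18.6-fold ratio. Differences in the spike-in share among replicates enter these values, since pure HEK replicate 1 had 147 gene counts per spike-in count and replicate 2 had 97.3. The replicates at 80% HEK were further apart, at 46.6 and 123. The ratio of 10.03 is thus uncertain. With the labels it puts HEK RNA at 71.5% of the mixture with 20% HEK cells, where the share fitted below was 60.4 and 62.0%. The study reported a lower ratio of messenger RNA content.

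**Figure D3:**
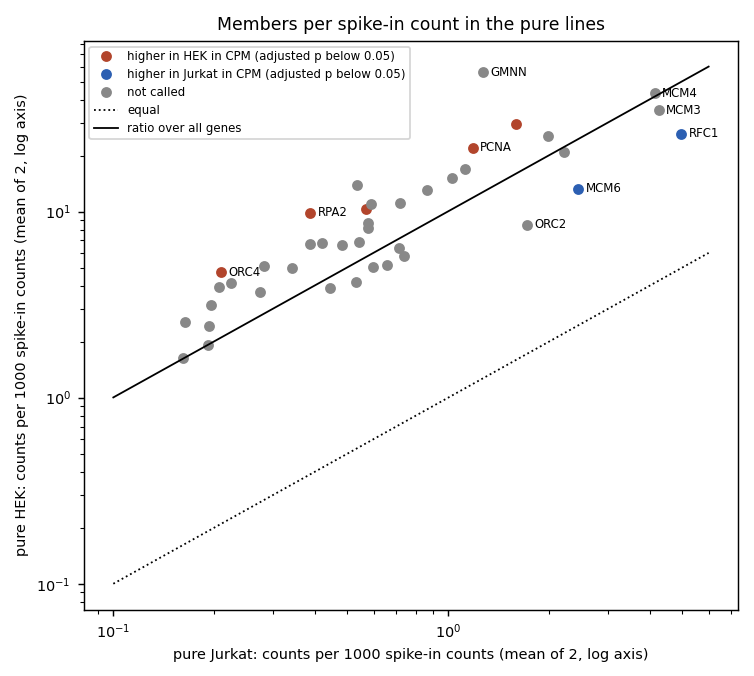
Mean counts per 1000 spike-in counts of the 41 genes in pure HEK (vertical) against pure Jurkat (horizontal), both on log axes. All points lie above the dotted line of equality; 12 of the 41, among them RFC1, MCM6 and ORC2, lie below the solid line, which marks the ratio of 10.03 over all genes.

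The 10 mixed libraries, which the comparison of pure lines did not use, gave a second measure of the same genes. Across them no replication gene was called for a change from 20 to 80% HEK cells (edgeR, 41 tested, background 5.61%). At an unadjusted p under 0.05 there was 1 (background 17.9%), POLA1, with a log2 change of -0.97 ± 0.35 (edgeR adjusted p = 0.158), and DESeq2 called none. The log2 changes ran from -0.97 to 0.59, with 16 of 41 above 0 and a median of -0.06, beside 0.01 for all genes. For the called genes of the pure lines the changes were 0.54 ± 0.27 for RPA2, 0.59 ± 0.30 for RFC3, 0.19 ± 0.29 for PCNA, -0.06 ± 0.20 for ORC4, -0.06 ± 0.25 for CDT1, -0.19 ± 0.30 for MCM6 and -0.08 ± 0.33 for RFC1 (log2, SE). None of them passed the test. The trend covers a narrow range of RNA, as the fitted HEK share of RNA, given below, ran from 60.4 to 96.5% over these libraries. Only part of a line difference can therefore appear in it, and a missing call does not contradict the pure lines. Within the files of one prefix (6 libraries, 20 to 60% HEK) no replication gene was called by edgeR (background 1.15%, 2 at an unadjusted p under 0.05). Within those of the other (4 libraries, 50 to 80% HEK) 1 was called (background 3.43%, 12 at an unadjusted p under 0.05). The share of all genes at an unadjusted p under 0.05 was not computed within a prefix. The called gene was MCM10, at a log2 change of 2.69 per 60 percentage points (edgeR adjusted p = 0.0443). Its log2 change was 0.45 ± 0.36 over all 10 mixed libraries and -0.10 within the first prefix. The only 50% HEK library of these 4 was replicate 2, where MCM10 had 107 CPM against 186 CPM in replicate 1.

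The mixtures were then compared with the level that the pure lines predict. HEK RNA made up a larger share than HEK cells did: fitted on 1796 line-specific genes outside the list, the share was 96.5 and 96.4% in the mixtures with 80% HEK cells, 91.5 and 91.3% with 60%, 87.4 and 88.7% with 50%, 81.9 and 82.7% with 40%, and 60.4 and 62.0% with 20%. The expected level of a gene in a mixture therefore lay nearer to pure HEK than to pure Jurkat in every mixture. No replication gene was called for a difference from the expected level beyond 0.5 on the log2 scale (limma treat, 41 tested, background 0.0564%). None reached an unadjusted p under 0.05 either (background 2.04%). With so few calls over all genes, the absence of calls does not place the replication genes within 0.5. The mean difference was within 0.5 for 39 of 41 genes (95.1%), and for 92.0% of all genes. The exceptions by estimate were GMNN at -0.51 ± 0.19 and POLA1 at -0.57 ± 0.17. The expected level of GMNN rests on a pure HEK mean of 404 CPM, from 676 and 132 CPM, and its SE leaves out this gap. Tested for a difference beyond 0, 3 genes passed (background 15.2%): CDC6 above expectation (0.41, limma adjusted p = 0.0441), and POLA1 (-0.57, adjusted p = 0.0354) and POLD3 (-0.40, adjusted p = 0.0351) below it. The errors of the pure means do not enter this test.

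**Figure D4:**
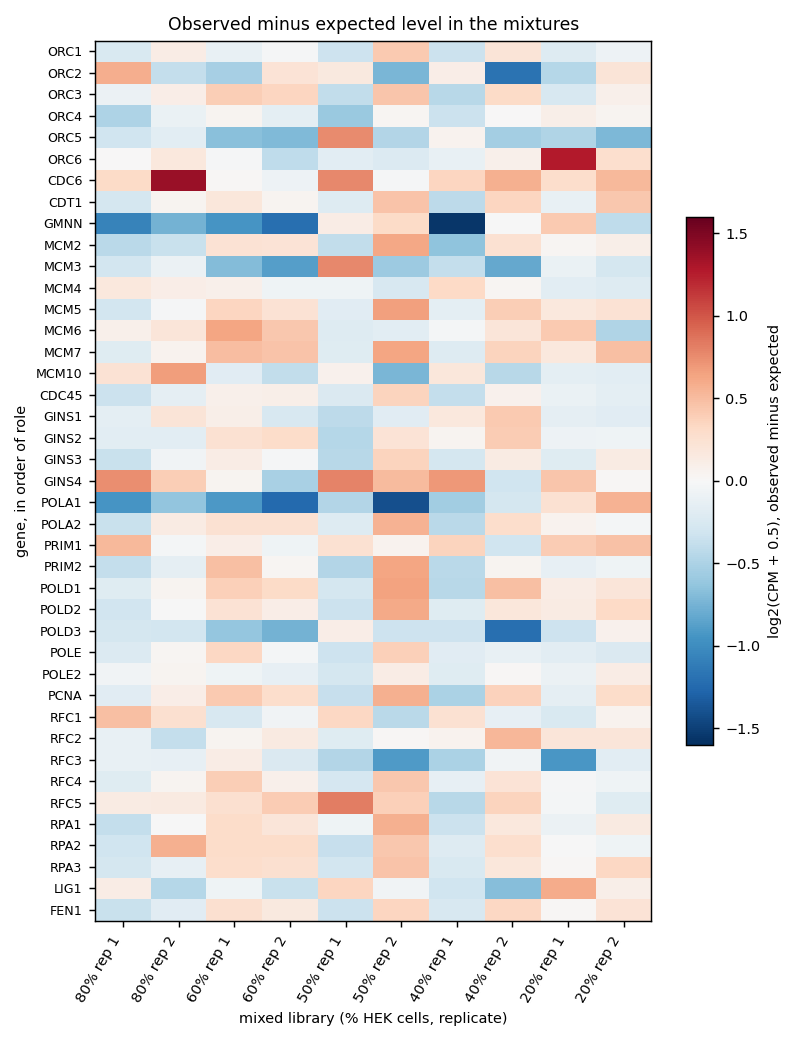
Observed minus expected log2(CPM + 0.5) of the 41 genes (rows, in order of role) in the 10 mixed libraries (columns); red is above and blue below the level expected from the pure lines. The columns of the 50% HEK replicates differ over most rows, and POLA1 and GMNN are blue in most columns.

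The replicates of the 50% HEK mixture differed for most replication genes, and those of the 40% mixture for about the same share of them as of all genes. In the 50% HEK pair 28 of the 41 genes differed at least 1.5-fold between the replicates (background 46.5%), 21 of them higher in replicate 2 (background 30.8%) and 7 higher in replicate 1 (background 15.6%). The 7 were MCM3, ORC5, POLA1, ORC2, MCM10, CDC6 and RFC1. Those higher in replicate 2 included PCNA, MCM2, MCM5, MCM7, POLD1, POLD2, PRIM2, CDT1, FEN1 and the 3 RPA genes. All 21 were also higher in replicate 2 of the 40% HEK pair, a share that was 89.4% over all genes chosen in the same way, and 5 of the 7 were again higher in replicate 1 there (73.7% over all genes). The number of genes at least 1.5-fold apart was 15 in the 40% HEK pair (background 36.1%), 3 in pure HEK (15.8%), 3 at 80% (13.5%), 1 at 60% (12.5%), 5 at 20% (14.1%) and 6 in pure Jurkat (31.3%). The median gap of the list in the 50% pair was 0.72 on the log2 scale, beside 0.54 for all genes.

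The 50% HEK replicates had 28303668 and 16404261 gene counts and different prefixes, while the 40% replicates had 12946443 and 9675274 and the same prefix. At 60% HEK the prefixes differed and 1 gene was 1.5-fold apart. The part of depth, prefix or any other property of the libraries in these differences was not tested. The difference between the lines was larger than the largest replicate gap of any condition for 9 of the 41 genes (22.0%; background 46.9%): ORC4, CDT1, CDC45, POLA1, POLA2, RFC1, RFC2, RFC3 and RPA2 (log2 of mean CPM). By mean CPM, PCNA and MCM6, though called, missed this mark, with line differences of 0.89 and -0.85 and largest replicate gaps of 0.94 and 0.92. The list depended on the scaling of the line difference. On the TMM scale CDT1 (0.64), CDC45 (0.58), POLA2 (0.63), RFC2 (0.72) and RFC3 (0.66) missed the mark. Their largest gaps in CPM were 0.77, 0.60, 0.76, 0.75 and 0.78. MCM6 (-1.08), GINS1 (-0.40) and LIG1 (-0.59) met it there, with largest gaps of 0.92, 0.38 and 0.57.

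**Figure D5:**
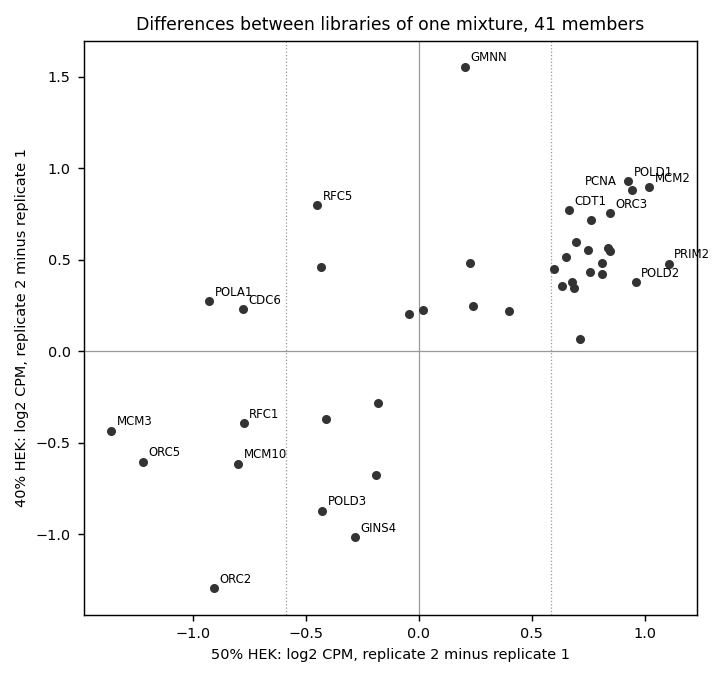
Log2 CPM of replicate 2 minus replicate 1 for the 41 genes, at 50% HEK (horizontal) and 40% HEK (vertical); dotted lines mark a 1.5-fold difference at 50% HEK. The 21 genes to the right of the right dotted line all lie above 0 on the vertical axis, and MCM3, ORC5, ORC2, MCM10 and RFC1 lie at the lower left.

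The other genes of replication and of S phase, a list of 43, were all tested. In the pure lines 6 were higher in HEK (background 24.2%) and 8 higher in Jurkat (background 19.0%), with a median log2 fold change of -0.06. Toward HEK the largest calls were POLD4, an accessory subunit of polymerase delta (2.85 ± 0.82, edgeR adjusted p = 0.0414, from 0 and 4.95 expected counts in Jurkat and 43 and 52.2 in HEK, so that its fold is poorly determined), CCNE1, the cyclin of the G1 to S transition (1.98 ± 0.30, adjusted p = 0.00618), and TK1, the thymidine kinase of the salvage pathway (1.85 ± 0.30, adjusted p = 0.00793). Toward Jurkat they were RNASEH2B, a subunit of ribonuclease H2 (-3.06 ± 0.24, adjusted p = 0.00106), TYMS, thymidylate synthase (-1.51 ± 0.23, adjusted p = 0.0064), and DUT, the dUTPase (-1.35 ± 0.27, adjusted p = 0.0141). In the mixtures 1 of the 43 was called, RNASEH2B, whose log2 change from 20 to 80% HEK cells was -1.29 ± 0.34 (edgeR adjusted p = 0.0418). RNASEH2B had a mean of 112 CPM in HEK and 803 CPM in Jurkat, and its fold change exceeded that of each of the 41 machinery genes.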

How the data were processed

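RNA-seq was examined for 14 libraries, 2 technical replicates for each of 7 mixing conditions. RNA was captured and primed with oligo-dT, and ERCC spike-ins were added in a fixed volume. Per the labels and the study's methods the authors aligned mate 1 to GRCh38 with the ERCC sequences by STAR 2.6.1b and counted with RSEM 1.3.1. The annotation, the strand setting of counting and removal of PCR copies are not given in the sources used here. The authors deposited raw expected counts per gene, with no normalization, beside TPM. TPM were rescaled here over genes without spike-ins.

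Expected counts were rounded for tests, and CPM used gene counts without spike-ins. Symbols and loci came from GENCODE release 44 (57754 of 58440 genes matched; other genes held at most 0.327% of counts). Of the 41 genes, 25 overlap another annotated gene and 8 have annotated pseudogenes, so their counts are less certain.

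Pure lines and trend over mixtures were tested with edgeR 4.0.16 (glmQLFit, glmQLFTest, TMM, filterByExpr), and the spike-in comparison with spike-in totals as library sizes. Observed and expected mixtures were compared with limma 3.58.1 (treat beyond 0.5, pseudocount 0.5 CPM, mean of at least 1 CPM over pure libraries). All p-values were adjusted by Benjamini-Hochberg over all genes tested, at 0.05. DESeq2 1.42.0 was an alternative. Scripts were tested on simulated data. Counting error alone sets the floor of 3 counts.

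The members and gene lists were chosen with earlier results of these data known. Values in every library were given for the 5 genes with the highest and the 5 with the lowest log2 fold change, MCM2 to MCM7, PCNA and the called genes. Replicate numbers follow accession order and pair nothing.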

Additional observations from a re-analysis of the deposited data

How the results depend on the processing

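In the pure lines, the 7 called genes became 13 with no low-count filter, and between 0 and 8 when 1 of the 4 pure libraries was left out. The number stayed within 1.5 times of 7 with RLE factors, library totals, a filter of 5 CPM, DESeq2, all 14 libraries in the fit and limma on log2(TPM + 1). Of all genes tested, 6801 of 15794 were called with RLE factors, 7052 of 15794 with library totals and 5389 of 11927 with the filter of 5 CPM. With all 14 libraries in the fit 7985 of 19129 were called, and with limma 5961 of 15794. The replication genes called were not always the same. Of the 7, 4 were called with all 14 libraries in the fit, 5 with limma and 6 with RLE factors or DESeq2. All 7 were called with library totals or the filter of 5 CPM. The log2 fold change of MCM4, not called, changed sign with library totals (0.0724), and ran from -0.48 to 0.26 with 1 library left out, the highest without pure Jurkat replicate 2. Over 16 named genes and 11 alternatives, 141 of the other values kept their direction and side of the threshold, 17 lost the call and 16 gained it. In the mixtures, no replication gene was called in the trend under any alternative run, including the file prefix as a term, the fitted HEK share of RNA and each library left out. Against expectation, 3 genes were called for a difference beyond 0 and none under the other alternatives run. Per spike-in count, between 40 and 41 genes were higher in HEK. In the main fit 92.5% of all genes tested were higher in HEK by this measure. No paired analysis was possible because the labels number no replicates.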
